A study of Mus musculus with 165 samples.

Results

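The genes described are 10 whose transcription responds to glucocorticoids, the steroid hormones that the adrenal gland releases in a daily rhythm and under stress. They were chosen by symbol, as Fkbp5, Tsc22d3, Sgk1, Zbtb16, Mt1, Mt2, Pdk4, Plin4, Hif3a and Nr3c1, and each matched 1 Ensembl identifier of the 55471 in the count tables. All 10 passed the filter on low counts in both tissues. The mice were males of the C57BL/6J/Ukj strain, kept only for aging with no treatment named, and the groups are their ages of 3, 9, 15, 24 and 28 months. Polyadenylated RNA was sequenced from 82 brains (15, 16, 16, 17 and 18 by age) and 83 livers (16, 16, 16, 17 and 18), and both tissues were analysed in 82 mice. Every mouse belonged to 1 of 3 library preparations, called preps here, each of which held all 5 ages. The series' title concerns tissue maintenance in aging beside inflammation and the loss of cognition.

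As background, glucocorticoids enter the cell and bind the glucocorticoid receptor, which Nr3c1 encodes, and the receptor then moves to the nucleus and binds glucocorticoid response elements in DNA. Fkbp5 encodes a co-chaperone that lowers the hormone affinity of the receptor, and Tsc22d3 (GILZ) carries anti-inflammatory effects of the hormone. Many of these genes also answer to other signals: Mt1 and Mt2 to metals and inflammation, Pdk4 to fasting, and several to the circadian clock.

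On GRCm38 the protein-coding genes lie at chr17:28399094-28517527 (Fkbp5), chrX:140539528-140600659 (Tsc22d3), chr10:21882184-21999903 (Sgk1), chr9:48654297-48836222 (Zbtb16), chr8:94179082-94180327 (Mt1), chr8:94172664-94173568 (Mt2), chr6:5483351-5496309 (Pdk4), chr17:56100591-56109803 (Plin4), chr7:17031507-17062427 (Hif3a) and chr18:39410545-39519421 (Nr3c1).

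Brain libraries held 11.5 to 73.4 M counts and liver libraries 5.82 to 57.5 M. The brain library of 28 months replicate 15 stood apart from its age, with a median distance of 1.11 on the log2 scale over all genes, and that of 24 months replicate 13 followed at 0.535. The next brain library lay at 0.272. Replicate 15 of 28 months also had the fewest counts of the brains (11.5 M, next 19.1 M), the lowest mitochondrial share (3.00%, others 4.24% to 7.08%) and the lowest TMM factor (0.761, others 0.961 to 1.04), and the part of these in its values was not tested. Both are included unless stated, and calls that changed without them are given with the result. In livers the mitochondrial share ran from 4.61% to 5.91% at 3 months and from 3.13% to 5.24% at 28 months, and its part in the results was not tested. Neuron markers summed to between 5487 and 7073 CPM (counts scaled to a common library total, with TMM factors) in brains at 3 months and hepatocyte markers to between 61196 and 103354 CPM in livers, which fits the tissue labels. Macrophage markers were higher at 28 than at 3 months for 5 of 6 tested genes in the brain and 6 of 7 in the liver, where 16.3% and 31.9% of all tested genes were called higher. Their summed level ran from 241 to 307 CPM in the brain at 3 months and from 246 to 619 CPM at 28 months, and in the liver from 277 to 882 and from 391 to 1947 CPM. Lymphocyte markers in the liver were higher for 5 of 5, with sums of 5.62 to 22.8 CPM at 3 months and 13.3 to 262 CPM at 28 months. In the brain 3 of 5 blood markers (Alas2, Hbb-bs and Hba-a1) and 2 of 3 tested hepatocyte markers (Cyp2e1 and Apoa1) were also higher, and 1 of 6 endothelial markers was higher and 3 were lower (Tek, Kdr and Cdh5). The blood markers summed to between 29.9 and 234 CPM at 3 months and between 34.4 and 725 CPM at 28 months, and the endothelial markers to between 172 and 258 and between 139 and 407 CPM. Of 5 astrocyte markers Aldh1l1 was higher (0.27) and Gja1 (-0.18) and Aqp4 (-0.46) were lower, with sums of 3657 to 4524 CPM at 3 months and 1402 to 5021 CPM at 28 months. Of the neuron markers 0 of 6 were called (edgeR), with sums of 3421 to 6982 CPM at 28 months. Oligodendrocyte markers in the brain summed to between 1195 and 6222 CPM (median 2352) at 3 months. At 28 months they summed to between 1822 and 12368 CPM (median 2622). In the liver 2 of 5 tested hepatocyte markers were lower (Serpina1c -0.80 and Ttr -0.77) and none higher, with sums of 21842 to 117191 CPM at 28 months. Of 6 endothelial markers there, Cdh5 (0.57) and Pecam1 (0.25) were higher and Tek (-0.28) and Cldn5 (-0.32) lower, with sums of 139 to 199 and 158 to 325 CPM. The part of these markers in the results was not tested, and in bulk tissue fewer cells of a type and less RNA per cell cannot be told apart.

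The upstream sequences of Mt1, Mt2 and Sgk1 are shown because the glucocorticoid response element, searched as GNACA and TGTNC with 3 bases of any kind between them, on both strands, occurred upstream of Mt1 and of 1 of the Sgk1 starts, and because Mt1 and Mt2 are neighbours that moved together. The windows are the 250 bases before the RefSeq start on GRCm38.p6, all on the plus strand: chr8:94178839-94179088 for Mt1, chr8:94172368-94172617 for Mt2 and chr10:21993640-21993889 for Sgk1. Capitals mark the matches, which do not overlap.
Mt1: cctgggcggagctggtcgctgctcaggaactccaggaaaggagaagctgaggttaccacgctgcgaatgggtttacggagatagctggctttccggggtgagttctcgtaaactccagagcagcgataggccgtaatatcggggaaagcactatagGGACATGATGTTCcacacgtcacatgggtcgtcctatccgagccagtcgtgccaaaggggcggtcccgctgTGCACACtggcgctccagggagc
Mt2: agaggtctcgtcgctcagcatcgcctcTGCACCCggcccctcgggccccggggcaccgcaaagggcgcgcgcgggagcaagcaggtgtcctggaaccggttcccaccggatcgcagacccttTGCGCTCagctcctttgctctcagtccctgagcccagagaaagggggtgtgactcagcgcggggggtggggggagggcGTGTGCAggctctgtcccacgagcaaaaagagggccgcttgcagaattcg
Sgk1: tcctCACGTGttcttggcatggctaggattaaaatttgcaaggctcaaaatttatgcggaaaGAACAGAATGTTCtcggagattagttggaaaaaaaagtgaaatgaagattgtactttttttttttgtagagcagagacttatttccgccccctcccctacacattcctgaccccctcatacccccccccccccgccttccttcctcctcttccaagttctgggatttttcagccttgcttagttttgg
The response element starts at -94 in Mt1 and at -188 in Sgk1, and 0.387% of 32851 promoter windows of this length hold a match. Mt1 and Mt2 also hold matches to the metal response element, searched as TGCACNC (10.4% of windows) and TGCGCNC (12.5%), and the Sgk1 window holds the E-box CACGTG (6.02%). Among the other members with a RefSeq window, Hif3a held TGCACNC at -174 and Fkbp5 held CACGTG at -169, and Tsc22d3, Pdk4 and Plin4 held none of the 4 motifs. A match is a description of the letters and not a site of binding.

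At 3 months the level per kilobase of merged exon, in CPM, was highest in the brain for the metallothionein genes Mt2 (120 ± 21.6, SD, n = 15) and Mt1 (86.9 ± 13.9). Nr3c1 (13.3 ± 0.896), Sgk1 (12.2 ± 2.19), Tsc22d3 (12.1 ± 1.88) and Zbtb16 (11.3 ± 1.85) followed and lay within their spread of each other. Hif3a (0.797 ± 0.357) and Plin4 (0.735 ± 0.630) were lowest. In the liver Tsc22d3 (22.7 ± 10.6, n = 16), Mt2 (20.5 ± 59.5), Nr3c1 (11.1 ± 1.72), Mt1 (9.83 ± 21.4) and Pdk4 (8.84 ± 6.35) had the highest means. Those of Mt1 and Mt2 were carried by replicate 15, with 111 CPM of Mt1 and 142 CPM of Mt2, where the next liver held 18.0 and 17.0 CPM and the medians were 4.58 and 2.00 CPM, and their spread covers the means of the other genes. Hif3a was lowest at 0.0188 ± 0.0131. Hif3a had 3 or fewer counts in 9 of 16 livers at 3 months. The order of Mt1 and Mt2 depends on the lengths used, 1246 bases for Mt1, whose merged exon covers the whole gene, and 588 bases for Mt2. Before division by length the means were 108 CPM of Mt1 and 70.3 CPM of Mt2 in the brain, and 12.3 and 12.0 CPM in the liver.

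The first comparison asked which of the genes changed with age in the brain. From 3 to 28 months 7 of the 10 rose and none fell, against 28.3% of all 18711 tested genes called in either direction and 16.3% called higher and 12.0% lower (edgeR quasi-likelihood test, Benjamini-Hochberg adjusted p under 0.05, as for every call that follows). The 7, which the test of all age terms together also called (against 20.6% of all genes), were Plin4, Hif3a, Mt1, Mt2, Sgk1, Tsc22d3 and Fkbp5. The median log2 fold change of the 10 was 0.51, and that of all tested genes 0.01. The median of the 10 depended on 28 months replicate 15. Without that library their middle values were 0.21 (Fkbp5) and 0.44 (Mt2), and with it 0.35 (Tsc22d3) and 0.67 (Sgk1). All 7 were higher in each prep fitted alone. Without 28 months replicate 15 Tsc22d3 was not called (0.14, adjusted p = 0.268) and Nr3c1 was called lower (-0.14, adjusted p = 0.0323). The others of the 7 stayed called, and 5495 of all genes were. The comparisons with 3 months share the libraries of that age. At earlier ages fewer were called: 0 of 10 were called at 9 and at 15 months, where 0.315% and 0.871% of all genes were called and 1 and 0 of the 10 had an unadjusted p under 0.05 (edgeR), as did 1399 and 1452 of all 18711 genes. At 24 months Hif3a alone was called, against 10.1% of all genes. Without 28 months replicate 15, Mt1 (0.45, adjusted p = 0.0042) and Nr3c1 (-0.15, adjusted p = 0.0342) were called at 24 months beside Hif3a (0.76, adjusted p = 0.0221), and 3493 of all genes were. Without both libraries that stood apart, Mt1 (0.28, adjusted p = 0.0218) and Hif3a (0.81, adjusted p = 0.0153) were, with 3193 of all 18692 genes. DESeq2 called 0 at 9 and 15 months of the 9 genes for which it gave an adjusted p (it gave none for Mt1), and 123 and 224 of all 18204.

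**Figure D1:**
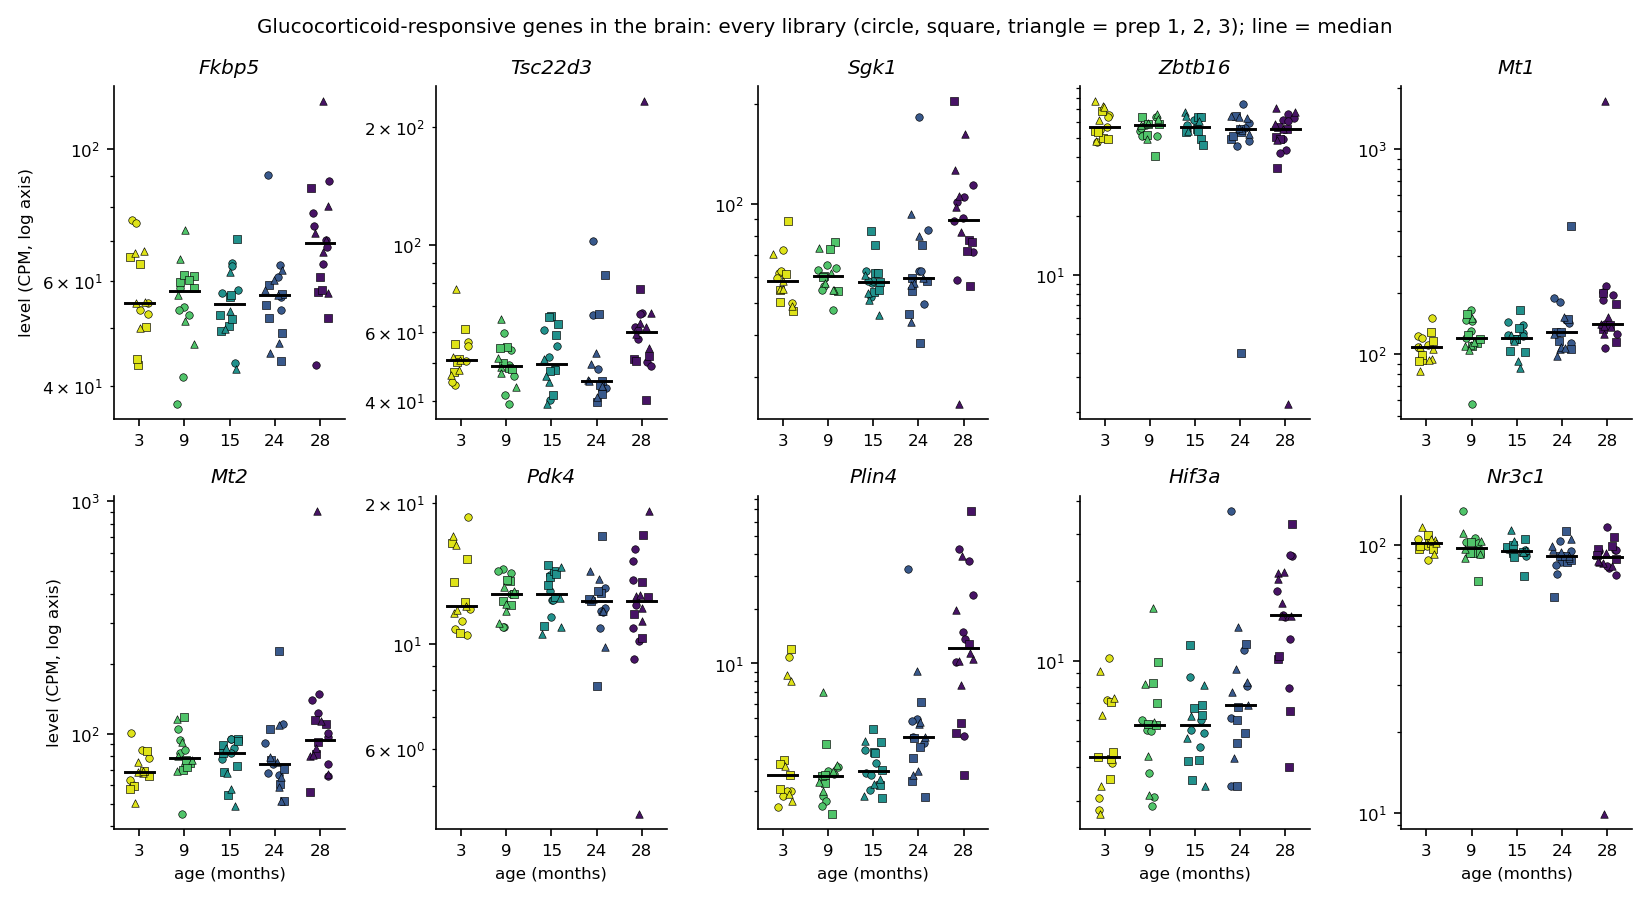
Level in CPM (log axis) of each gene in every brain library against age in months; symbols mark the prep and lines the median. Hif3a and Plin4 rise at 28 months, and 1 library at 28 months stands far below the rest for Zbtb16 and Nr3c1 and far above for Mt1 and Mt2.

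Plin4, which encodes a coat protein of lipid droplets, ran from 1.63 to 12.1 CPM with a median of 2.44 in brains at 3 months. At 28 months it ran from 2.46 to 68.6 CPM with a median of 12.1. The groups overlapped, with 9 of 18 brains at 28 months above the highest at 3 months. The log2 fold change was 2.08 ± 0.35 (SE, adjusted p = 2.72e-06), and from 24 to 28 months it was 1.69 ± 0.33 (adjusted p = 0.00215), the single call of that comparison, where 1.09% of all genes were called. Without 28 months replicate 15 Plin4 (1.59, adjusted p = 0.0021), Sgk1 (0.54, adjusted p = 0.0106) and Hif3a (0.80, adjusted p = 0.0379) were called from 24 to 28 months, and 525 of all genes were.

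Hif3a, an alpha subunit of the hypoxia-inducible factors, ran from 2.67 to 10.3 CPM with a median of 4.37 at 3 months and from 4.03 to 32.8 CPM with a median of 14.9 at 28 months. In all, 14 of 18 old brains lay above every young one. The log2 fold change was 1.58 ± 0.25 (adjusted p = 5.5e-07). At 24 months it was 0.76 ± 0.25 (adjusted p = 0.0345), and without replicate 5 of that age it was 0.44 (adjusted p = 0.21). That brain held 36.7 CPM, where the next held 13.5.

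Sgk1 encodes a kinase that regulates ion channels and transporters. It ran from 47.5 to 88.4 CPM (median 58.2) at 3 months and from 24.8 to 204 CPM (median 89.5) at 28 months. Of the 18 old brains, 9 lay above the young range and 1, replicate 15, lay below it. The log2 fold change was 0.67 ± 0.15 (adjusted p = 0.000243), and within preps 1, 2 and 3 it was 0.55, 0.69 and 0.80. At 24 months the median was 59.5 CPM, and replicate 5 stood high at 183 CPM, where the next brain held 93.3 CPM.

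The metallothioneins, small proteins that bind zinc and copper, rose by 1.12 ± 0.23 (Mt1, adjusted p = 0.000148) and 0.96 ± 0.22 (Mt2, adjusted p = 0.000597) on the log2 scale. Mt1 ran from 82.4 to 150 CPM (median 108) at 3 months and from 107 to 1720 CPM (median 140) at 28 months. Replicate 15 gave the 1720 CPM, and the next brain held 215 CPM. Without it the log2 fold changes were 0.50 for Mt1 (adjusted p = 0.000603) and 0.44 for Mt2 (adjusted p = 0.00776). In the prep that holds it the Mt1 change was 2.03, and in the others 0.45 and 0.53. Mt1 and Mt2 are related genes, and how reads that match both were counted is not given in the sources used here. Of the exon bases of Mt2, 432 are shared with an antisense gene, and without a stated strand setting the reads of Mt2 and that gene cannot be told apart.

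Fkbp5 ran from 43.4 to 76.1 CPM (median 55.2) at 3 months and from 43.4 to 120 CPM (median 69.4) at 28 months, with 5 of 18 old brains above the young range. The change was 0.26 ± 0.09 (adjusted p = 0.0192). Tsc22d3 changed by 0.35 ± 0.13 (adjusted p = 0.0389), from a median of 50.7 to one of 60.0 CPM. Its brains ran from 43.9 to 77.0 CPM at 3 months and from 40.2 to 232 CPM at 28 months, where 2 of 18 lay above the young range. Without 28 months replicate 15, which held 232 CPM, the Tsc22d3 change was 0.14 (adjusted p = 0.268), and 8 other brains, left out singly, also ended its call.

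Zbtb16, a transcription factor, and Pdk4, which encodes a kinase that inhibits pyruvate dehydrogenase, were not called in the brain, with changes of -0.19 ± 0.16 and -0.09 ± 0.09. The median of Zbtb16 was 56.7 CPM at 3 months and 55.5 CPM at 28 months. Its lowest brains were the 2 that stood apart, with 2.18 CPM in 28 months replicate 15 and 3.97 CPM in 24 months replicate 13. Nr3c1 was not called either, at -0.22 ± 0.10 (adjusted p = 0.0967). It ran from 88.5 to 118 CPM (median 102) at 3 months and from 9.88 to 117 CPM (median 90.5) at 28 months, where 8 of 18 brains lay below the young range and none above it. Without replicate 15, which held 9.88 CPM, the Nr3c1 change was -0.14 and was called (adjusted p = 0.0323).

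The second comparison asked the same of the liver. From 3 to 28 months Mt1, Mt2, Hif3a, Fkbp5 and Sgk1 rose and Pdk4 and Tsc22d3 fell, 7 of 10 against 61.9% of all 15579 tested genes (31.9% higher and 30.0% lower). The members' share is near that background. Their median log2 fold change was 0.27 and that of all genes 0.01. Each of the 7 kept its direction in all 3 preps. With all age terms together 8 of 10 were called, all but Zbtb16 and Nr3c1, against 71.5% of all genes. At 9 and 15 months Tsc22d3 alone was called (4.69% and 7.32% of all genes), at 24 months 5 of 10 (49.0%), and from 24 to 28 months 5 of 10 (15.3%).

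**Figure D2:**
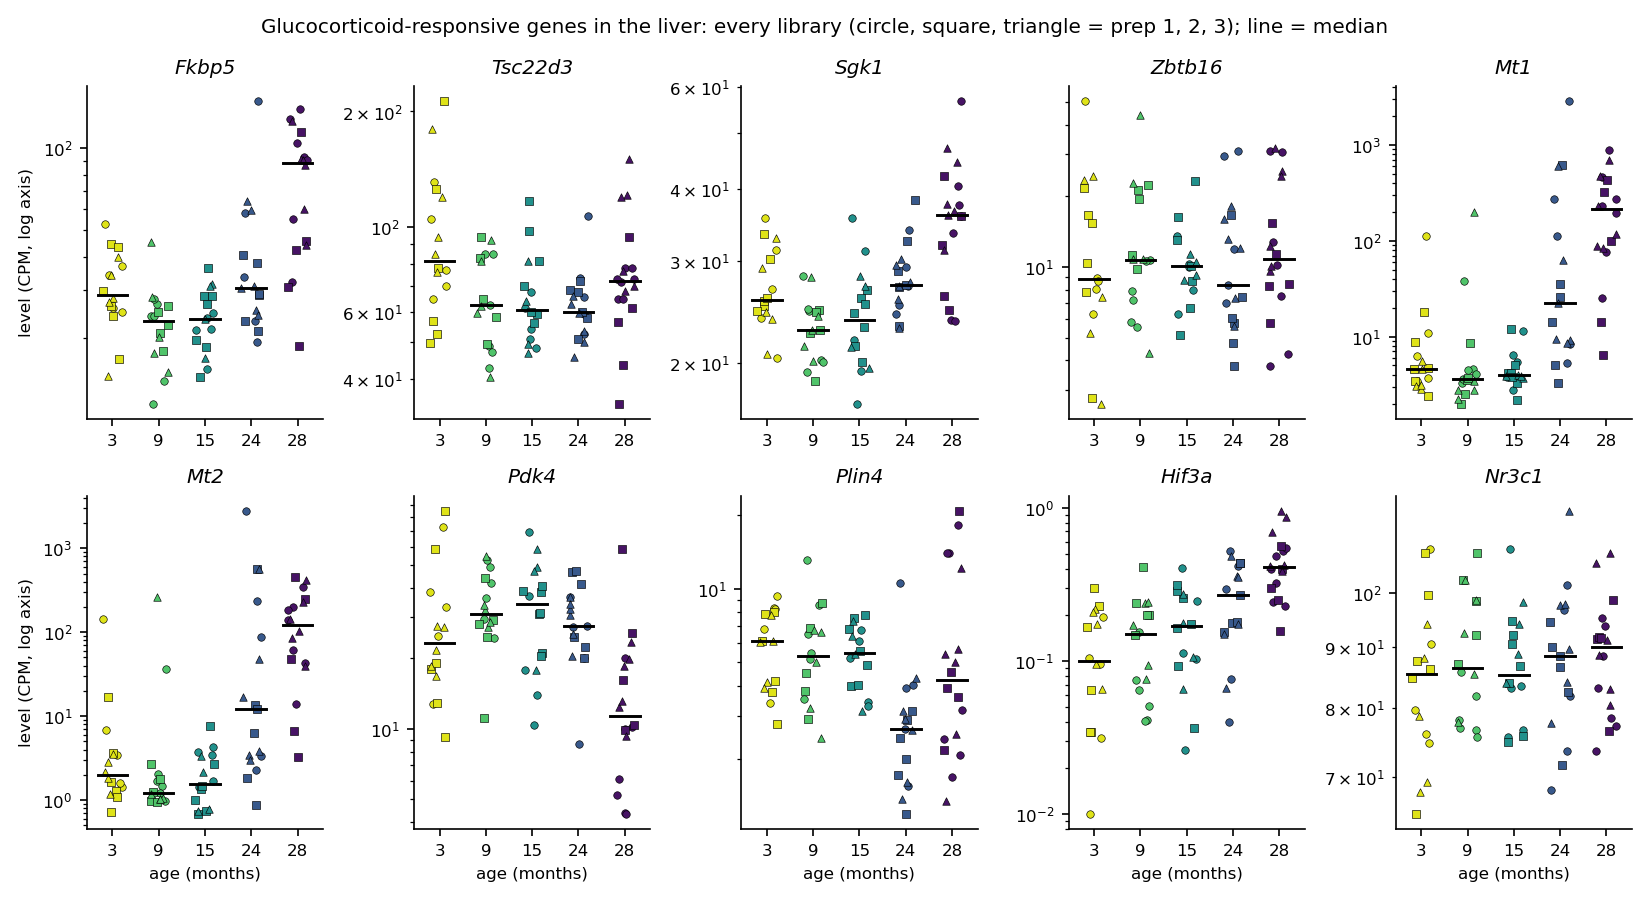
Level in CPM (log axis) of each gene in every liver library against age in months; symbols mark the prep and lines the median. Mt1 and Mt2 spread upward at 24 and 28 months and Pdk4 lies lower at 28 months; 1 Hif3a library with 0 counts is drawn at 0.01 CPM.

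Mt1 ran from 2.42 to 111 CPM (median 4.58) in livers at 3 months, from 3.31 to 2867 CPM (median 22.2) at 24 months and from 6.44 to 885 CPM (median 214) at 28 months. Young livers were low with 1 exception, replicate 15, and 11 of 18 livers at 28 months exceeded it. The log2 fold change was 4.41 ± 0.79 at 24 months (adjusted p = 3.56e-06) and 4.50 ± 0.79 at 28 months (adjusted p = 1.12e-06). Mt2 changed by 4.46 ± 0.95 and 4.05 ± 0.95 (adjusted p = 7e-05 and 0.000161). Its median was 2.00 CPM at 3 months, 12.2 CPM at 24 and 122 CPM at 28 months, and its mean 257 CPM at 24 and 153 CPM at 28 months. From 24 to 28 months its median therefore rose while the fitted change was -0.40 ± 0.81 and was not called. At 24 months replicate 5 held 2867 CPM of Mt1, where the next liver held 622 CPM, and 2783 CPM of Mt2, where the next held 574 CPM. That liver also had the lowest TMM factor of the livers (0.831, next 0.926) and a mitochondrial share of 3.53%. The part of these in its values was not tested. Without that liver the 24-month changes were 3.36 for Mt1 (adjusted p = 9.83e-05) and 3.21 for Mt2 (adjusted p = 0.00239). Without 3 months replicate 15, the high young liver, they were 5.28 and 5.99, and those at 28 months 5.29 and 5.35. Within the preps the 28-month change of Mt1 was 3.49, 4.65 and 6.20. That of Mt2 was 2.17, 5.16 and 6.18 (adjusted p = 0.204, 0.0138 and 0.00541), so it was not called in prep 1.

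Fkbp5 ran from 14.5 to 52.5 CPM (median 29.0) at 3 months and from 18.7 to 140 CPM (median 88.7) at 28 months. In all, 12 of 18 old livers lay above the young range. The change was 1.25 ± 0.21 (adjusted p = 6.96e-07), of which 0.89 ± 0.21 (adjusted p = 0.00126) fell between 24 and 28 months. At 24 months the change was 0.36 ± 0.21 and was not called.

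Hif3a rose by 1.83 ± 0.30 (adjusted p = 2.64e-07) from a median of 0.100 CPM to one of 0.409 CPM, so its liver level stayed low throughout. Of the old livers, 13 of 18 lay above the young range. It was already higher at 24 months, by 1.09 ± 0.31 (adjusted p = 0.00272), and from 24 to 28 months it rose by 0.74 ± 0.27 (adjusted p = 0.0464), a call that ended when any 1 of 16 livers was left out. Sgk1 rose by 0.40 ± 0.09 (adjusted p = 8.45e-05), with a median of 25.8 CPM at 3 months and 36.0 CPM at 28 months. Its livers ran from 20.4 to 35.7 CPM and from 23.6 to 56.7 CPM, and 11 of 18 old livers lay above the young range. From 24 to 28 months it rose by 0.34 ± 0.09 (adjusted p = 0.00397).

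Pdk4 fell by 1.03 on the log2 scale (SE 0.27, adjusted p = 0.000554). It ran from 9.26 to 85.3 CPM (median 23.3) at 3 months and from 4.33 to 58.8 CPM (median 11.4) at 28 months, so the groups overlapped. The highest old liver was replicate 10, and the next held 25.8 CPM. From 24 to 28 months the change was -0.94 ± 0.26 (adjusted p = 0.00759). From 3 to 28 months it was -2.10 in prep 1 and -0.48 in both others. Tsc22d3 changed by -0.57 ± 0.16 at 9 months, -0.56 ± 0.16 at 15, -0.64 ± 0.16 at 24 and -0.35 ± 0.15 at 28 months (adjusted p = 0.0232, 0.0206, 0.000487 and 0.0463). Its young livers ran from 49.7 to 213 CPM, and leaving out 3 months replicate 6 (213 CPM) or replicate 10 (180 CPM) ended the calls at 9 and 15 months. The 28-month call was lost when any 1 of 19 livers was left out.

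Plin4 in the liver was lower at 24 months, at -1.01 ± 0.27 (adjusted p = 0.00152), and rose by 1.14 ± 0.27 from 24 to 28 months (adjusted p = 0.00126), so that 28 and 3 months did not differ by the test (0.14 ± 0.26, adjusted p = 0.662). At 28 months it spread from 1.35 to 20.8 CPM, with 5 of 18 livers above and 6 below the young range. Zbtb16 (0.05 ± 0.31) and Nr3c1 (0.07 ± 0.06) were not called in the liver at any age.

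**Figure D3:**
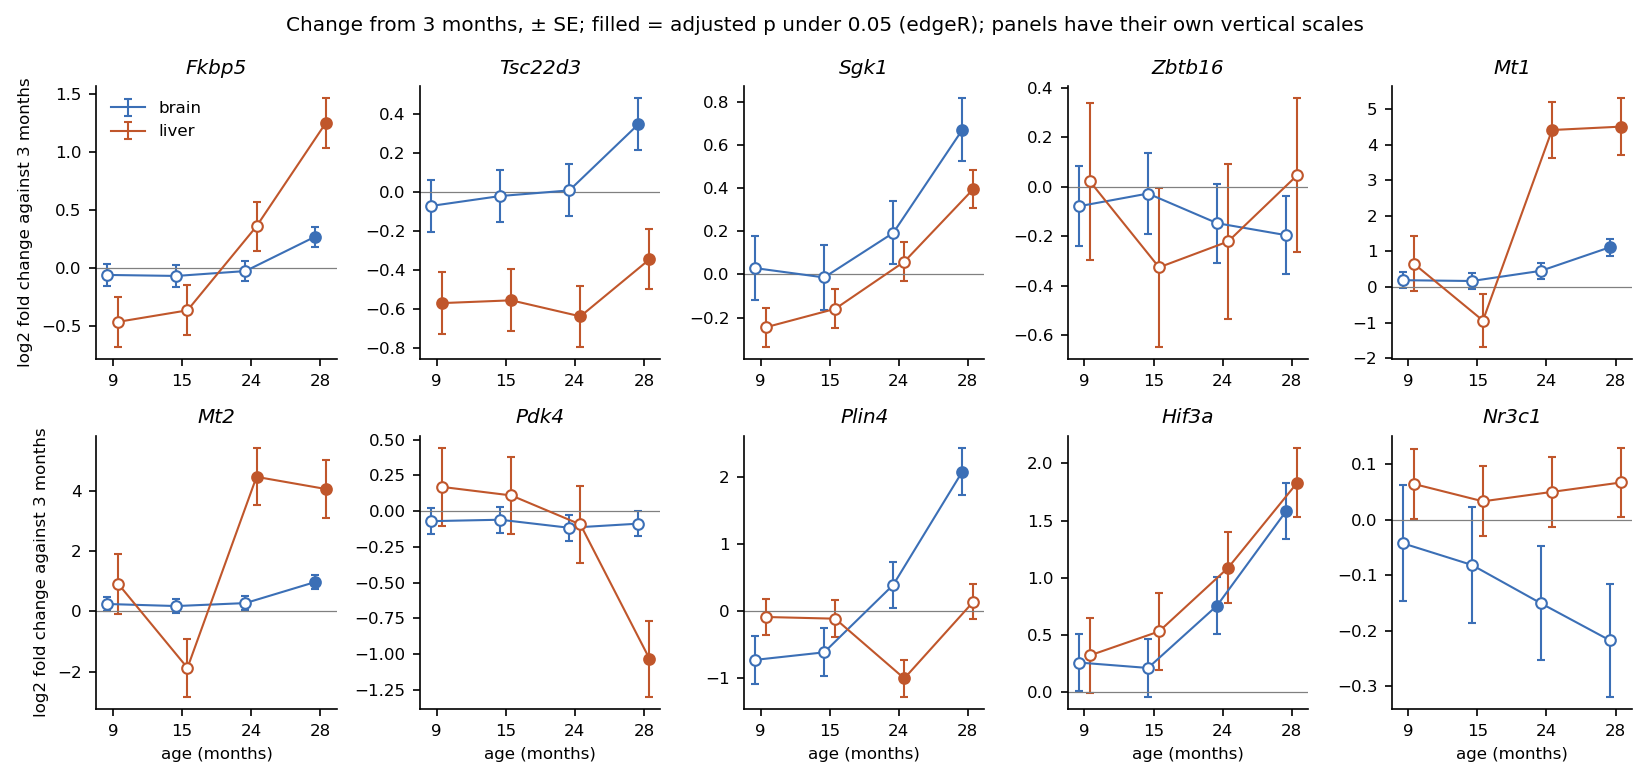
Log2 fold change against 3 months (± SE) at 9, 15, 24 and 28 months in brain and liver, with filled points for adjusted p under 0.05. Hif3a follows a similar course in both tissues, whereas Tsc22d3 and Plin4 part between them; vertical scales differ by panel.

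The change from 3 to 28 months was then compared between the tissues in 1 fit, as the liver change minus the brain change. It differed for 7 of the 10 genes, against 40.6% of 20328 tested genes (24.7% with the higher change in the liver and 15.9% with the lower). Fkbp5 (1.04 ± 0.23, adjusted p = 9.82e-05), Mt1 (3.52 ± 0.74, adjusted p = 3.44e-05), Mt2 (3.22 ± 0.88, adjusted p = 0.00158) and Nr3c1 (0.32 ± 0.13, adjusted p = 0.0334) had the higher change in the liver. Plin4 (-1.87 ± 0.43, adjusted p = 0.000173), Pdk4 (-0.92 ± 0.29, adjusted p = 0.00578) and Tsc22d3 (-0.62 ± 0.20, adjusted p = 0.00795) had the lower. With only the libraries of 3 and 28 months the Nr3c1 call was lost (0.34, adjusted p = 0.105). Each of the 7 kept its direction in every prep alone, but of the 7 only Mt1 was called in all 3, where 4026, 1340 and 4423 of all genes were called in preps 1, 2 and 3. In that order Nr3c1 was 0.09, 0.10 and 0.75 (adjusted p = 0.751, 0.783 and 0.0753) and Tsc22d3 -0.56, -0.72 and -0.80 (adjusted p = 0.121, 0.26 and 0.111), called in none. Pdk4 was -2.06, -0.43 and -0.27 (adjusted p = 0.00147, 0.729 and 0.63) and called in prep 1 alone. Plin4 (-1.64, adjusted p = 0.215) and Fkbp5 (0.50, adjusted p = 0.475) were not called in prep 2, nor Mt2 in prep 1 (1.74, adjusted p = 0.385). Sgk1 (-0.24 ± 0.17) and Hif3a (0.29 ± 0.39) rose in both tissues, and a difference between their changes was not detected. Tissue levels at 3 months depended on the scaling: Nr3c1 was higher in the liver by 0.49 with TMM factors and lower, at -0.30, with library totals alone, and Hif3a was lower in the liver with both (-4.63 and -5.41), where the median over all genes was -0.31 and -1.10.

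The third question was whether a mouse with a high level in the brain also had one in the liver, with age and prep removed. Over 82 mice 4 of the 10 genes were called, all positive, against 2.14% of 14035 genes (1.45% positive and 0.698% negative), and 10 relations were computed. Hif3a had r = 0.70 (Spearman's rho 0.73, permutation p = 1e-05 for both, adjusted p over all genes 2.99e-09), and 0.107% of genes had an r as high. Plin4 had r = 0.60 (rho 0.49, permutation p = 1e-05 and 2e-05, adjusted p = 4.86e-06). Fkbp5 had r = 0.55 (rho 0.50, permutation p = 3e-05 and 4e-05, adjusted p = 8.62e-05), and Sgk1 r = 0.39 (rho 0.52, permutation p = 1e-05 for both, adjusted p = 0.0274). The smallest p these permutations can give is 1e-05.

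Without the 2 mice farthest from the median brain value, r was 0.66 for Hif3a, 0.49 for Plin4, 0.50 for Fkbp5 and 0.49 for Sgk1. Within preps 1, 2 and 3, r was 0.67, 0.63 and 0.73 for Hif3a, 0.62, 0.67 and 0.61 for Plin4, 0.61, 0.42 and 0.60 for Fkbp5 and 0.35, 0.74 and 0.37 for Sgk1. Within the ages of 3, 9, 15, 24 and 28 months, r was 0.75, 0.46, 0.72, 0.69 and 0.76 for Hif3a and 0.54, 0.27, 0.37, 0.73 and 0.74 for Plin4. It was less even for Fkbp5 (0.37, 0.39, 0.02, 0.72 and 0.78), which showed no relation at 15 months, and for Sgk1 (0.58, 0.16, 0.31, 0.35 and 0.58). Hif3a had 3 or fewer counts in 9 of 16 livers at 3 months, 7 of 16 at 9 and 8 of 16 at 15 months. Its r at those ages therefore rests on few liver counts. Mt1 (r = 0.16), Mt2 (r = 0.23), Tsc22d3 (r = 0.24), Zbtb16 (r = 0.01), Pdk4 (r = -0.07) and Nr3c1 (r = -0.12) were not called. Without the mice of the 2 brain libraries that stood apart, r was 0.50 for Mt1, 0.54 for Mt2 and 0.41 for Tsc22d3, and 7 genes were called, where 429 of all 14035 genes were called, against 301 with those mice.

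**Figure D4:**
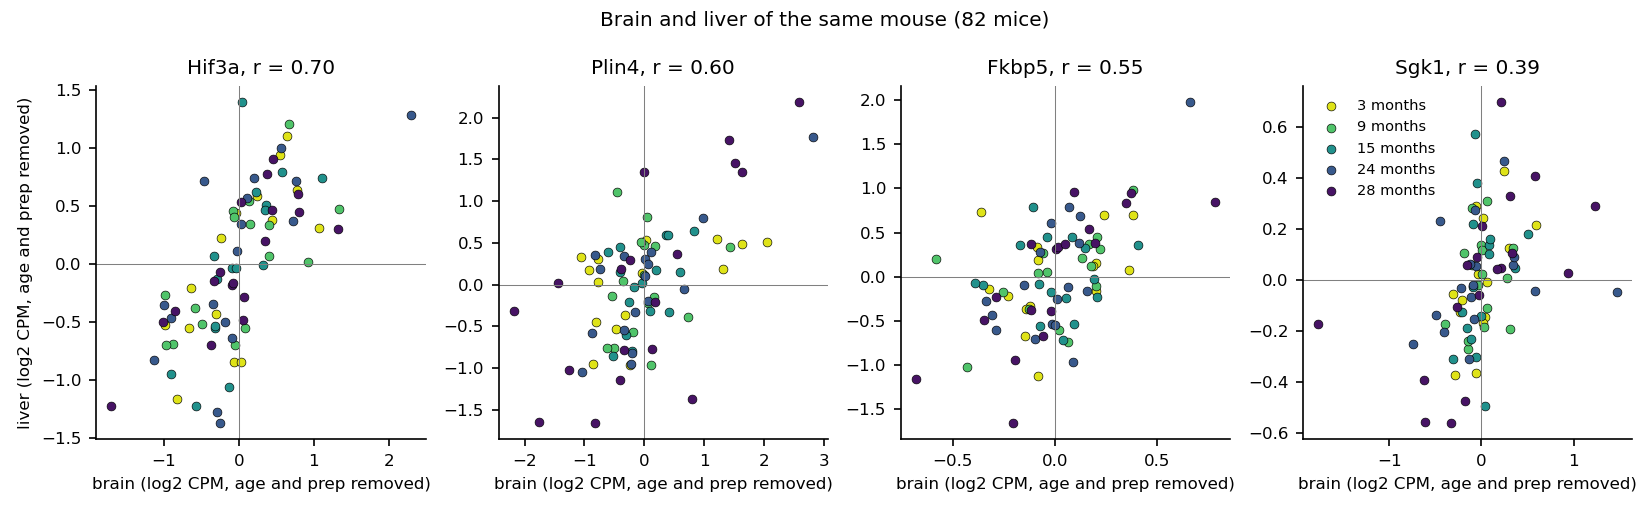
Brain against liver level of 4 genes in the same mouse, in log2 CPM with the means of age and prep removed; each point is 1 of 82 mice, coloured by age. Points run from lower left to upper right, most tightly for Hif3a (r = 0.70).

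The mouse of 24 months replicate 5 had the highest Fkbp5 of its age in both tissues (90.5 CPM in the brain, 149 CPM in the liver), with Plin4 at 32.9 and 10.6 CPM. Replicate 17 of 28 months had the highest Plin4 of its age in both (68.6 and 20.8 CPM), and replicate 10 the lowest Hif3a in both (4.03 and 0.158 CPM). Of the 18 mice at 28 months, 13 exceeded the young range of Hif3a in both tissues, 9 that of Sgk1, 5 that of Fkbp5 and 5 that of Plin4.

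Within a tissue the genes were compared with Fkbp5, with age and prep removed and p adjusted over all genes. In the brain Hif3a (r = 0.58, rho 0.55, permutation p = 2e-05 and 5e-05, adjusted p = 2.53e-06) and Plin4 (r = 0.57, rho 0.44, permutation p = 2e-05 and 0.00066, adjusted p = 3.65e-06) had the highest r. Sgk1 had r = 0.26 (rho 0.42, permutation p = 0.0779 and 0.00227, adjusted p = 0.0525), and without the 2 libraries that stood apart r was 0.60 for Hif3a, 0.57 for Sgk1 and 0.55 for Plin4, so the order after Hif3a depended on those libraries. Tsc22d3 (r = 0.51, rho 0.40, permutation p = 0.00052 and 0.00253, adjusted p = 5.94e-05), Mt2 (r = 0.51, rho 0.42, permutation p = 0.0001 and 8e-05, adjusted p = 7.23e-05) and Mt1 (r = 0.48, rho 0.37, permutation p = 0.00072 and 0.00068, adjusted p = 0.000225) also passed, with r of 0.41, 0.44 and 0.41 without those 2 libraries and of 0.38, 0.35 and 0.30 without the 2 farthest. Within preps 1, 2 and 3 their r was 0.32, 0.55 and 0.59, then 0.57, 0.34 and 0.61, then 0.43, 0.30 and 0.62. Nr3c1 ran the other way (r = -0.49, rho -0.41, permutation p = 0.00013 and 0.0004, adjusted p = 0.000121). Of all other brain genes, 0.486% had an r with Fkbp5 as high as Hif3a and 0.534% as high as Plin4. The share was 1.28% for Tsc22d3, 1.4% for Mt2, 2.06% for Mt1 and 19.6% for Sgk1, which lay just short of passing. How many of all genes passed was not counted, so the number of members that did has no background beside it. In the liver Mt1 was the most like member (r = 0.66, rho 0.64, permutation p = 1e-05 for both, adjusted p = 7.11e-08), with 0.0835% of genes as high, and Pdk4 ran the other way (r = -0.35, rho -0.32, permutation p = 0.00475 and 0.00484, adjusted p = 0.0187). Mt2 (r = 0.60, adjusted p = 2.26e-06), Plin4 (r = 0.50, adjusted p = 0.000228) and Hif3a (r = 0.47, adjusted p = 0.000554) also passed there. Without the 2 farthest libraries their r was 0.50, 0.45 and 0.38. Zbtb16 (r = 0.27), Tsc22d3 (r = 0.17), Sgk1 (r = 0.17) and Nr3c1 (r = 0.02) did not pass in the liver. Leaving out the 2 farthest libraries gave 0.58 for Hif3a, 0.51 for Plin4, 0.52 for Sgk1 and -0.44 for Nr3c1 in the brain, and 0.56 for Mt1 and -0.19 for Pdk4 in the liver, so r for Pdk4 was smaller without those libraries. With the clock score removed r was -0.09 for Pdk4 and 0.65 for Mt1. Within preps 1, 2 and 3, r with Fkbp5 was 0.65, 0.57 and 0.34 for Hif3a, 0.62, 0.61 and 0.55 for Plin4, 0.55, 0.48 and -0.25 for Sgk1 and -0.34, -0.47 and -0.65 for Nr3c1 in the brain, and 0.72, 0.53 and 0.68 for Mt1 and -0.43, -0.22 and -0.35 for Pdk4 in the liver, so that Sgk1 turned its sign in prep 3. In all, 20 such relations were computed. Mt1 and Mt2 were related in the brain (r = 0.94, and 0.83 without the 2 libraries that stood apart) and the liver (r = 0.97).

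**Figure D5:**
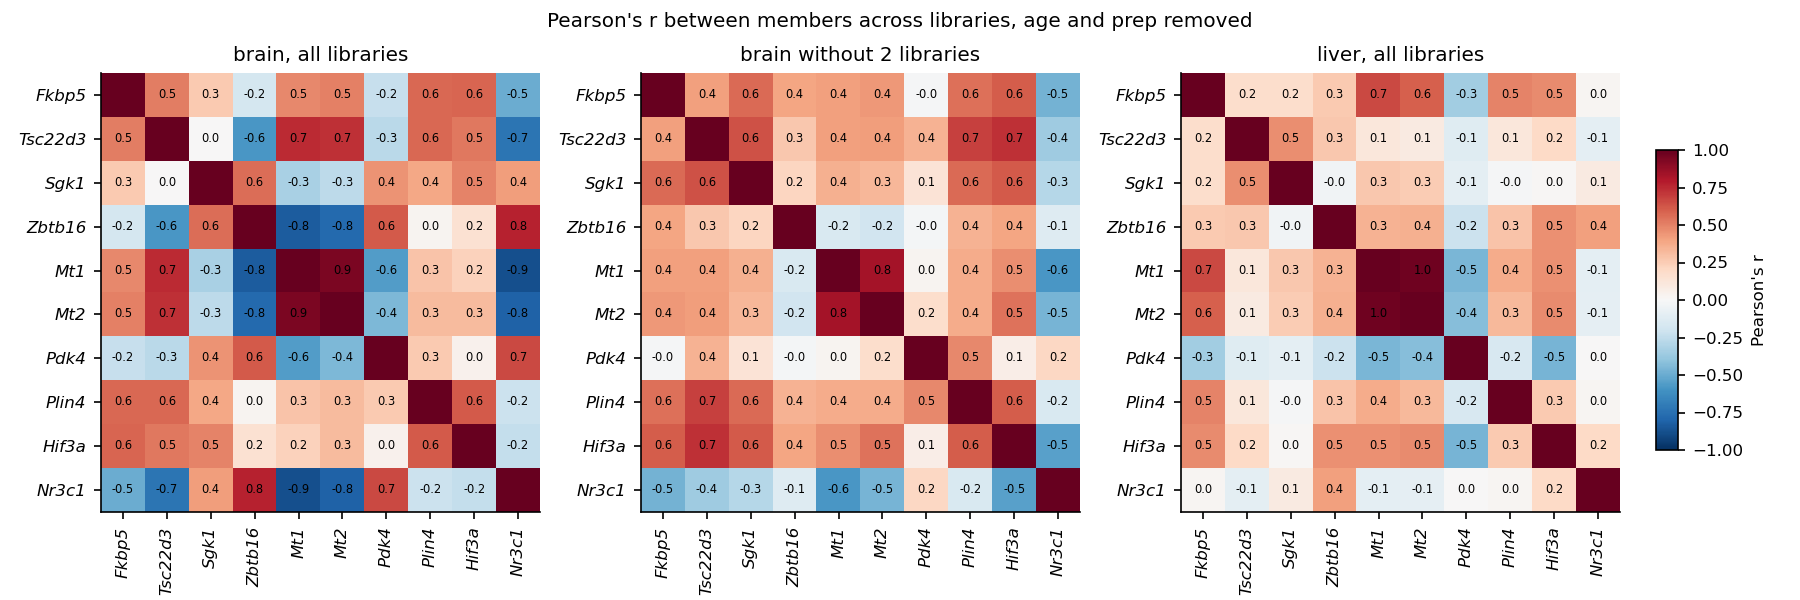
Pearson's r between the 10 genes across libraries, with age and prep removed, in the brain, in the brain without the 2 libraries that stood apart, and in the liver. Without those libraries the negative block between Zbtb16 and the metallothioneins in the brain goes from -0.83 to -0.15 for Mt1.

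As a description, the genes outside the 10 that were most like each were named by rule. In the liver these were Por, Trim24 and Fmo2 for Fkbp5 (r = 0.79, 0.74 and 0.71), Itih3, Apcs and Dnajc12 for Mt1 (0.88, 0.85 and 0.84), Klf15, Per1 and Ccnf for Tsc22d3 (0.59, 0.56 and 0.56) and Zfand5, Ppp1r3c and Net1 for Pdk4 (0.73, 0.73 and 0.71). In the brain they were Etnppl, Rtp1 and Fam107a for Plin4 (0.83, 0.79 and 0.77) and Galnt15, Map3k6 and Xdh for Hif3a (0.72, 0.72 and 0.72). Without the 2 brain libraries that stood apart they were Etnppl, Sult1a1 and Rtp1 for Plin4 (0.82, 0.79 and 0.79) and Mertk, Map3k6 and Galnt15 for Hif3a (0.81, 0.76 and 0.75).

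Circadian genes differed between 3 and 28 months beside these results. Of 7 clock output genes, 3 were higher and 0 lower in the brain (Ciart 0.73, Dbp 0.43 and Nr1d1 0.20) and 5 were higher and 0 lower in the liver, led by Ciart (4.03) and Per3 (3.57), where 16.3% and 31.9% of all genes were called higher. Arntl was lower in both tissues (-0.26 and -0.94) and Npas2 in the liver (-1.36), where 12.0% and 30.0% of all genes were. A clock score, the mean z-score of these 7 genes minus that of Arntl and Npas2, averaged -0.29 ± 0.37 (SD) in brains at 3 months and 0.94 ± 1.37 at 28 months, and -0.77 ± 1.07 and 2.03 ± 2.32 in livers. The brain of 28 months replicate 15 had a score of 5.40. In the liver, with age and prep removed, Pdk4 (r = -0.56, rho -0.53, permutation p = 3e-05 and 0.0001, adjusted p = 1.43e-05), Fkbp5 (r = 0.51, rho 0.42, permutation p = 0.00033 and 0.0023, adjusted p = 0.000113) and Hif3a (r = 0.45, rho 0.41, permutation p = 4e-05 and 0.00083, adjusted p = 0.0014) followed the score over 83 libraries. Plin4 (r = 0.34, rho 0.15, permutation p = 0.017 and 0.202, adjusted p = 0.0255) and Zbtb16 (r = 0.31, rho 0.27, permutation p = 0.0113 and 0.0355, adjusted p = 0.048) also passed, 5 of 10 in all, against 13.8% of all genes. For the first 3, without the 2 farthest libraries r was -0.52, 0.45 and 0.42. Within preps 1, 2 and 3, r was -0.61, -0.35 and -0.58 for Pdk4, 0.42, 0.35 and 0.43 for Hif3a, and 0.71, 0.56 and 0.07 for Fkbp5, which did not follow the score in prep 3. For Plin4 it was 0.50, 0.38 and 0.20 and for Zbtb16 0.50, -0.11 and 0.35, and without the 2 farthest libraries 0.24 and 0.27. In the brain 9 of 10 passed, all but Hif3a, against 73.2% of all genes, and without the 2 libraries that stood apart 0 of 10 did, against 0.0748% of all genes, and Mt1 alone had an unadjusted permutation p under 0.05. Without them r went from 0.70 to 0.30 for Mt1 and from -0.73 to -0.17 for Nr3c1. Over both tissues, 30 relations with the score were computed. With the scores of brain and liver also removed, r between the brain and liver of the same mouse was 0.60 for Hif3a and 0.54 for Plin4 (adjusted p = 7.15e-06 and 0.000177). It was 0.37 for Fkbp5, from 0.55, and 0.38 for Sgk1, from 0.39 (adjusted p = 0.041 and 0.0407). In that setting 383 of all 14035 genes were called. With the score as a covariate, 3 of the 7 brain calls from 3 to 28 months remained (Hif3a 1.34, Plin4 1.60 and Sgk1 0.84) and 5 of the 7 liver calls (Mt1 3.76, Mt2 3.34, Hif3a 1.14, Fkbp5 0.51 and Sgk1 0.38). The changes that lost their call were Fkbp5 (0.09), Tsc22d3 (-0.070), Mt1 (0.07) and Mt2 (0.05) in the brain and Pdk4 (-0.33) and Tsc22d3 (-0.41) in the liver. With the score as a covariate and the 2 libraries that stood apart left out, 4 brain genes were called, Hif3a (1.24, adjusted p = 0.000488), Plin4 (adjusted p = 0.00475), Sgk1 (0.67, adjusted p = 0.000634) and Mt1 (0.35, adjusted p = 0.00605), while Fkbp5 (0.11), Tsc22d3 (0.08) and Mt2 (0.32, adjusted p = 0.059) were not, and 4410 of 18692 of all genes were called. Over all genes the score left 4919 of 18711 called in the brain, from 5291, and 8684 of 15579 in the liver, from 9639. From 24 to 28 months in the liver none of the 5 calls remained (Fkbp5 0.23, Plin4 0.39, Sgk1 0.32, Hif3a 0.03 and Pdk4 -0.25), and over all genes the calls went from 2385 to 362 of 15579. In the brain from 24 to 28 months the score took them from 204 to 4027 of 18711, and to 28 of 18692 with the 2 libraries that stood apart also left out, and 2 and 0 of the 10 genes were called. The hour at which tissue was taken is not given in the sources used here, and its part in these results was not tested.

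Other genes of the pathway were read from lists, whose median log2 fold change from 3 to 28 months can be set beside the 0.01 of all genes in either tissue. Over all genes 16.3% were called higher and 12.0% lower in the brain, and 31.9% and 30.0% in the liver, and each count that follows is to be read against those shares. Of 16 genes for the receptor and its chaperones, 1 rose and 6 fell in the brain (median -0.13) and 1 rose and 10 fell in the liver (median -0.31). Among them Stip1, a co-chaperone of Hsp90, fell by 0.31 and 0.79 (adjusted p = 6.3e-09 and 5.33e-09), and Hsp90aa1 fell by 1.21 in the liver (adjusted p = 2.09e-08). Of 20 other targets found in many tissues, 5 rose and 2 fell in the brain (median 0.08) and 11 rose and 4 fell in the liver (median 0.38). Sult1a1, a sulfotransferase, rose in both (1.23 and 1.15), the clock gene Per1 rose in the liver (1.96) and Bcl6, a repressor, fell in the liver by 2.00. Of 14 further brain targets 8 rose and none fell in the brain (median 0.20), led by Xdh (0.98) and Pla2g3 (0.60).

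Among 16 liver targets 6 rose and 4 fell in the liver (median 0.31), a share near the 61.9% of all genes called there. Ppargc1a (1.07) and Pck1 (0.90) rose, while G6pc fell by 1.29 and Angptl4 by 1.27. Of 15 genes of the fasting response 1 rose (Pdk3, another pyruvate dehydrogenase kinase, 1.71) and 9 fell (median -0.83), with Acot1 down by 2.96 and Fgf21 by 1.93. Of 13 acute-phase genes 10 rose and none fell (median 1.14), led by Lcn2 (4.06) and Orm2 (3.46). In the brain 3 of the 5 tested were higher, Lcn2 (3.07), Hp (2.16) and Lrg1 (0.88), beside the rise of Mt1 and Mt2 there, and their part in it was not tested. In the metal response list 1 of 7 rose (Slc39a14, a zinc importer, 0.55) and 4 fell, Slc39a4 by 1.45 and Slc30a10 by 1.33. Of 8 liver genes for hormone supply 3 rose and 3 fell, where about as large a share of all genes went each way, among them Srd5a1, a steroid reductase, which fell by 2.16. Of 10 hypoxia genes, a list set beside Hif3a, 5 rose and 1 fell in the liver, 6 of 10 and so near the share of all genes, with Car9 (2.18) and Adm (1.43) highest and Egln3 lowest (-0.86), and 1 rose in the brain (Slc2a1, a glucose transporter, 0.31). Of 8 brain genes in the metal response list 1 rose, the brain metallothionein Mt3 (0.75), and 2 fell. In the brain list of the stress axis 1 of 6 tested genes rose (Crhbp, 0.33) and 1 fell (Pomc, by 1.87). The summed pituitary markers reached 655 CPM in 1 brain at 3 months beside a median of 1.20 CPM, and their part in the Pomc value was not tested.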

How the data were processed

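The authors deposited raw counts per Ensembl gene, 1 table per tissue. Per the submitters' processing notes, cutadapt 2.8, HISAT2 2.1.0, SAMtools 1.9 and featureCounts (Subread 2.0.1) were used with GRCm38.p6 (mm10). The strand setting and the annotation release are not given in the sources used here. No column was left unused (0 columns). Symbols matched 55144 of 55471 identifiers. Each tissue was fitted with edgeR 4.0.16 (filterByExpr, TMM, age and prep as terms, quasi-likelihood test), with p adjusted over all tested genes. CPM values are TMM-scaled, and log2 CPM used a prior count of 2. SE was derived from the log2 fold change and its F statistic. The tissue difference came from 1 fit of both tissues. Correlations used 100000 permutations within age and prep. Alternatives included DESeq2 1.42.0 and limma 3.58.1 (voom). The code was checked on simulated data. Exon lengths came from GENCODE on GRCm38. All 10 genes were named, with, from each list, up to 2 of the called genes highest and 2 lowest, of which the text gives a part, and the 3 most similar genes of at least 1 CPM. Genes and lists were chosen with earlier results of these data known. The labels name separate mice as replicates. Counts limit precision at low levels, as PCR copies were not told apart.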

Additional observations from a re-analysis of the deposited data

Results flagged for a closer look

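For 7 genes the change from 3 to 28 months differed between liver and brain by the test of the difference itself (edgeR). The liver change minus the brain change was 1.04 for Fkbp5, -0.62 for Tsc22d3, 3.52 for Mt1, 3.22 for Mt2, -0.92 for Pdk4, -1.87 for Plin4 and 0.32 for Nr3c1. Without the 2 brain libraries that stood apart it was 1.08, -0.45, 4.06, 3.66, -0.97, -1.79 and 0.24 in that order, and all 7 were called. With only the libraries of 3 and 28 months Nr3c1 was 0.34 and was not called (adjusted p = 0.105), and in single preps all of the 7 but Mt1 lost their call in 1 or more preps. Groups of more than 10 libraries were not tested for outliers.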

How the results depend on the processing

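Alternatives gave the following numbers of genes called among the 10, each followed by the number called among all genes tested. In the brain at 24 against 3 months (1, of all genes 1882), no low-count filter gave 0 (1539), preps 1, 2 and 3 alone 0 each (222, 112 and 92), the clock score 2 (2376), the 2 ages alone 2 (2259), leaving out the 2 libraries that stood apart 2 (3193), both together 2 (3216) and voom with sample quality weights (limma) 3 (4844). In the brain at 28 against 3 months (7, of all 5291), the clock score gave 3 (4919), with those libraries out 4 (4410), and the preps 2, 0 and 4 (1987, 368 and 1205). In the brain at 28 against 24 months (1, of all 204), DESeq2's size factors gave 2 (209), no prep term 2 (226), the clock score 2 (4027), those libraries out 3 (669), both together 0 (28), the 2 ages alone 0 (2), each prep 0 (8, 0 and 0), voom 5 (980) and DESeq2 5 (425). In the liver at 9 and 15 against 3 months (1 each, of all 731 and 1140), each prep gave 0 (at 9 months 12, 12 and 3, at 15 months 58, 64 and 14), as did the 2 ages alone (342 and 708). In the liver, 24 against 3 months (5, of all 7636) gave 1 and 3 in preps 1 and 2 (906 and 2443), 28 against 3 months (7, of all 9639) gave 4 and 2 in those preps (6198 and 2457), and 28 against 24 months (5, of all 2385) gave 0 with the clock score (362), 1, 0 and 1 by prep (2520, 0 and 198) and 8 with voom (4502). The tissue difference (7, of all 8251) gave 4, 2 and 4 by prep (4026, 1340 and 4423). The within-mouse relation (4, of all 301) gave 7 without the 2 mice (429), 0 in each age (17, 3, 5, 407 and 5 from 3 to 28 months) and 0 in preps 1 and 3 (9 and 18). The cause was not tested, but a prep or an age alone holds fewer samples.

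Of the log2 fold changes under alternatives, 1170 kept direction and side of the threshold, 103 lost the call, 25 gained it and 3 turned. Brain Tsc22d3 at 28 against 3 months was -0.070 (adjusted p = 0.69) with the clock score. Liver Mt2 at 28 against 24 months was 2.77 with voom. Nr3c1 in the liver against the brain at 3 months was -0.30 with library totals alone. Leaving out 1 library at a time gave 0 to 0 calls in the brain at 9 and 15 months, 0 to 3 at 24, 6 to 7 at 28 and 1 to 5 at 28 against 24 months. In the liver it gave 0 to 1, 0 to 1, 5 to 5, 6 to 7 and 4 to 5 in that order.

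Replicate numbers of different ages are different mice, so a replicate block within a tissue pairs nothing; it gave 0 calls in the brain at 24 against 3 months. In the fit of both tissues the replicate block is the mouse, and the same 7 tissue differences were called (Fkbp5 0.95, Tsc22d3 -0.42, Mt1 4.09, Plin4 -2.19). Hif3a in the liver lay at or under 3 counts in 9 of 16 libraries at 3 months, which limits its fold change.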
